A study of Azumapecten farreri with 9 samples.

Results

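The small RNA table of Zhikong scallop hemocytes holds 204 predicted candidate lines, and 57 of these are 19 bases or shorter or 25 bases or longer. They were chosen by name and length alone: the name begins with PC-, the form given to a candidate with no registered miRNA name, and the listed sequence lies outside 20 to 24 bases. The whole table has 417 lines, of which 147 are predicted candidates of 20 to 24 bases and 213 carry a miRBase name. Hemocytes are the circulating immune cells of bivalves. The study injected scallops of Azumapecten farreri (Chlamys farreri) with LPS stimulating exosomes, with normal exosomes or with phosphate-buffered saline (PBS), and sequenced hemocyte small RNA in 3 libraries per group, 9 in all. LPS is lipopolysaccharide, a bacterial cell wall component, and exosomes are small RNA-carrying vesicles released by cells. All 3 groups received an injection, and no uninjected group was analysed here. The labels give no age, dose, time after injection or number of animals per library, nor the cells the exosomes came from. Nothing in them states that libraries sharing a group derive from different animals.

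A miRNA is cut from one arm of a hairpin precursor, the 5p or the 3p arm, first by Drosha and then by Dicer, and the distance between those cuts sets the length of the product at about that of the usual miRNA class. Bases 2 to 8 from the 5′ end form the seed, which pairs with target messages and groups miRNAs into families. Sequences shorter or longer than the usual class can be trimmed or extended forms of a miRNA, fragments of other RNAs or members of other small RNA classes, such as piRNAs, which are longer and often begin with U. The deposited table writes U as T, and so does the text here. Whether any candidate is a processed miRNA was not tested.

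The first set shown is 6 lines of 19 bases, all named as 3p arms, that share their first 6 bases. This set is called the family here. It is shown because it holds PC-3p-1990_749, the 1 member called in a comparison between groups. Capitals mark the seed.
PC-3p-552_3225: tGTAATCTttgcactcccc
PC-3p-10409_117: tGTAATCTttgcactcctc
PC-3p-21485_45: tGTAATCTgtgcacttccc
PC-3p-31246_25: tGTAATCTgtacactcccc
PC-3p-1430_1100: tGTAATTTgtgcgctcctc
PC-3p-1990_749: tGTAATTTgtgctctcctc
These 6 lines are alike at 13 of 19 positions, and any pair differs at 1 to 4. Counted from 1 at the 5′ end, with the base of PC-3p-552_3225 written first, PC-3p-10409_117 differs from it by C18T, PC-3p-21485_45 by T9G and C16T, and PC-3p-31246_25 by T9G and G11A. PC-3p-1430_1100 differs from it by C7T, T9G, A13G and C18T. PC-3p-1990_749 differs from PC-3p-1430_1100 by G13T alone, with the base of PC-3p-1430_1100 first. The seed GTAATCT is thus shared by 4 of the lines and GTAATTT by 2. With at most 2 mismatches allowed, the 4 join into 1 set through PC-3p-552_3225 and the 2 form a pair apart. Lines of different seeds differ at 3 or 4 positions. In the table, 7 lines begin with the same 6 bases. The seventh is a candidate of 24 bases, and 2 further candidates of 20 bases carry the same bases after 1 more base at the 5′ end.

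A second set of sequences shows 3 members of 26 bases that begin with the whole sequence of another listed line and run past its 3′ end. The other line stands under each member, with the seed again in capitals.
PC-3p-23124_40: tATCACAGcctgctttgatgagcttt
mle-miR-2b-3p_1ss11AT: tATCACAGcctgctttgatgagc
PC-5p-20874_47: tGCCATTTttatcagtcactgtgaaa
lgi-miR-1985_R-1: tGCCATTTttatcagtcactgtg
PC-3p-48158_11: tAACGATAgttttgaacaaccggggc
PC-3p-34636_21: tAACGATAgttttgaacaac
The first belongs by sequence with miR-2, an invertebrate family known from a cluster with miR-71, and the second with miR-1985, a miRNA known from molluscs. Both members carry 3 bases more than the named line. The last carries 6 bases more than a predicted candidate that has no registered name.

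Another set gives the remaining members that were above 0 in all 9 libraries.
PC-5p-4178_330: gAAAGTGAaggcagcctc
PC-5p-1622_950: cCACCTGCtaatgcaggta
PC-3p-3363_424: aTTGTAGCtacaacatct
PC-5p-3312_433: aGGTCTGGacctgtgtaatatttgg
PC-3p-6939_185: aTGATAGGactgaggctt
PC-5p-2879_498: tGGTGGACctggacctcc
PC-3p-6282_207: tGATAATCtgacggccgtaaaatttc
None of these 7 shares its seed with another line. PC-5p-1622_950 can pair with itself over 6 bases on each side of a loop of 3 or more bases. It was the single member with such an inverted repeat of 5 or more bases, which 5 of the 417 lines have. Inverted repeats with a shorter loop or none, as in PC-3p-3363_424, were not counted.

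The values are normalized counts as the authors deposited them, with 1 scale per library. Normalized totals ran from 4002817 to 6337019, and the lines summed to 7063405 to 15676183 when each library's values were divided by the smallest step between them. Of the 1990 values above 0, 99.55% were whole multiples of that step within 0.01, and whether a step is 1 read is not known. The lowest values stood at 5 steps in 8 of 9 libraries, so a line listed at 0 can hide 4 steps, worth 1.40 to 2.47 on the normalized scale. For many members a 0 can hide more, since those seen in 1 library had no value under 10 steps. No list of miRNAs that defines bivalve hemocytes was at hand. Of the other cell types checked, lines named for the muscle families miR-1 and miR-133 (2 of 3 numbers, 7 lines; miR-206 not listed) summed to between 138267 and 220526 in LPS exosome, 179221 and 230147 in normal exosome and 132632 and 206292 in PBS libraries. Lines named for the neural numbers miR-7, miR-9 and miR-124 (3 of 3, 4 lines) summed to at most 832 in any library. Of the blood and liver numbers of vertebrates, only miR-122 was listed (1 of 4, 2 lines), with sums of 21.6 to 526.9. In bulk small RNA, more cells of a type and more RNA per cell cannot be told apart.

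The 57 members were rare. Together they held 0.0222% ± 0.00738 of the signal of a library (SD, n = 9). The 147 candidates of 20 to 24 bases held 44.6% ± 2.81 and the 213 named lines 55.3% ± 2.80. The share of the candidates of 20 to 24 bases rested largely on their highest line, of 22 bases. Its mean over the 9 libraries was 2237630. By median, members were no rarer than those candidates, with a median mean value of 1.59 in each class. The most abundant member, PC-3p-552_3225, had a mean of 178 over the 9 libraries and the highest value of any member in any library was 441. The 10 members of highest mean held 90.5% of the members' signal, and the other 47 members had a mean of 12 or less. By length, 14 members have 18 bases, 23 have 19, 9 have 25 and 11 have 26. The 37 short members held 87.3% of the members' signal and the 20 long ones 12.7%.

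At the bounds of the length rule, medians stood as follows. The 23 candidates of 19 bases had a median mean value of 0.735 and the 24 of 20 bases, just outside, 0.745. The 9 candidates of 25 bases had a median of 0.961 and the 19 of 24 bases 1.37. The highest mean was 178 at 19 bases against 18.6 at 20 bases, and 71.4 at 25 bases against 522.5 at 24 bases. Across lengths, the highest single candidate was a line of 22 bases.

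Detection split the members into a few steady lines and many seen once. Of the 57, 27 were above 0 in 1 library, 21 in 2 to 8 libraries and 9 in all 9. As shares these were 47.4% in 1 library and 15.8% in all 9, against 42.9% and 22.4% of the candidates of 20 to 24 bases and 23.9% and 41.3% of the named lines. The members seen in 1 library stood between 3.50 and 11.9 there, 10 to 22 steps. Single detection was more frequent at 18 bases (8 of 14) and 19 bases (12 of 23) than at 26 bases (2 of 11), and it was 5 of 9 at 25 bases. Members of 1 table are not replicates, and no test was made of these shares.

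**Figure D1:**
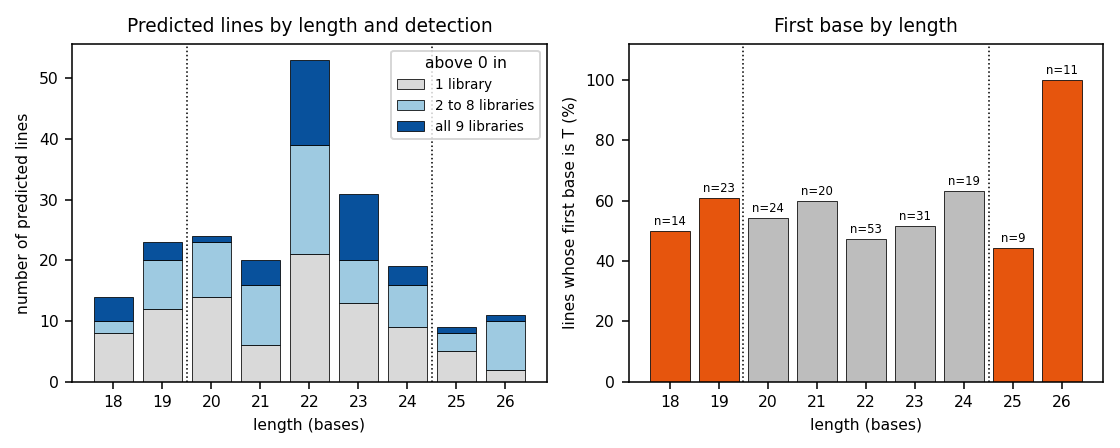
Left, the number of predicted lines (y axis) at each length in bases (x axis), split by the number of libraries in which the line was above 0; right, the percent of lines of each length whose first base is T, with the number of lines above each bar, members in orange. Dotted lines mark the length bounds of 19 and 25 bases; the longest lines, of 26 bases, all begin with T, and the count of lines peaks at 22 bases.

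First base and arm differed between lengths. T came first in 11 of 11 lines of 26 bases, 4 of 9 of 25 bases, 14 of 23 of 19 bases and 7 of 14 of 18 bases. Over all members this was 36 of 57, 63.2%, against 53.1% of the candidates of 20 to 24 bases and 53.5% of the named lines. The other first bases were C in 9 members, A in 8 and G in 4. The names place 30 members on the 5p arm and 27 on the 3p arm, whereas 58 of the candidates of 20 to 24 bases were 5p and 89 were 3p. Bases G and C made up 21.1% to 73.7% of a member, with a median of 46.2% against 47.8% in the candidates of 20 to 24 bases. These are descriptions of the list, with no test.

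Few members resembled any other line. Of the 57, 9 matched another listed line over 15 or more bases with at most 2 mismatches and no gap, and the same 9 were those that shared a seed with another line. No member had exactly the sequence of another line, although 41 lines elsewhere in the table repeat a sequence. The 57 members carried 53 distinct seeds. The consensus letters of the B box of tRNA genes were found on either strand in 1 member, PC-3p-65923_6 (cTGGTTCGactccggctcgcgggat, capitals the seed), and in 2 of all 417 lines, 0.480%. That member was listed at 6.49 in PBS replicate 1 and at 0 elsewhere. A match of letters does not show what the fragment is, and the labels state that tRNA reads were filtered out. No other tRNA sequence was searched for, so fragments from other parts of a tRNA would be missed, and 1 is no count of tRNA-like members.

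**Figure D2:**
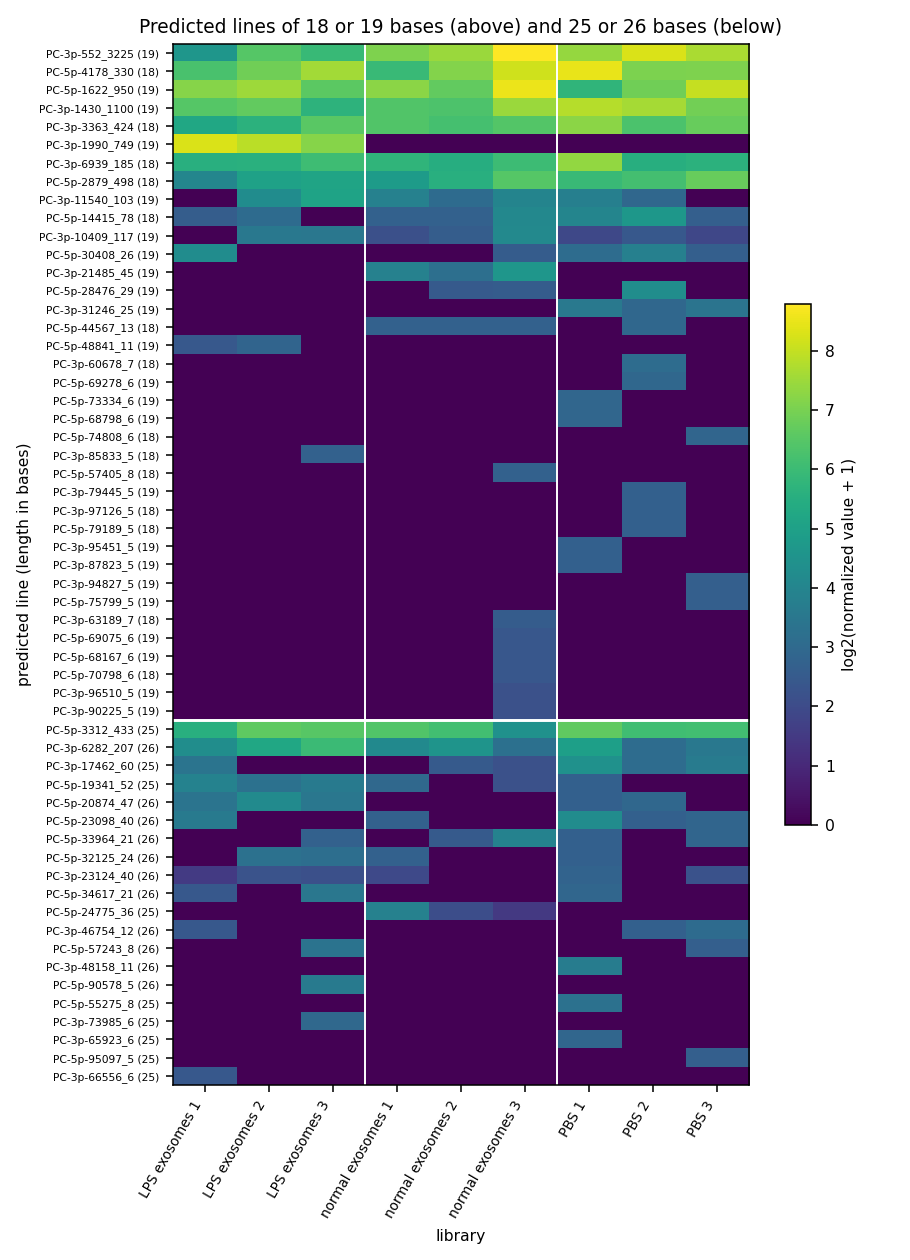
Each row is 1 of the 57 members with its length in brackets, each column a library, and the colour gives log2(normalized value + 1), with 18 or 19 bases above the white line and 25 or 26 bases below it. A few rows are bright in all 9 libraries, PC-3p-1990_749 is bright in the 3 LPS exosome libraries and at 0 in the other 6, and 27 rows have a value in 1 library.

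The number of members listed above 0 was highest in PBS libraries on average. It was 21, 18 and 22 with LPS exosomes, 19, 18 and 27 with normal exosomes and 29, 25 and 23 with PBS. The LPS exosome and PBS ranges did not overlap, and the normal exosome range overlapped both. Over all 417 lines the numbers were 222, 193 and 216 (LPS exosomes), 205, 240 and 240 (normal exosomes) and 221, 232 and 221 (PBS). For candidates of 20 to 24 bases they were 78, 50 and 54, 57, 64 and 77, and 67, 63 and 59, in the same order. In both of these the groups overlapped. The highest normal exosome count of members came from replicate 3, the library with the most steps, 15676183. Long members above 0 numbered 10, 6 and 11 with LPS exosomes, 7, 5 and 6 with normal exosomes and 13, 6 and 9 with PBS. Of the 27 members seen once, 4 were in an LPS exosome library, 7 in a normal exosome library and 16 in a PBS library. All 7 of the normal exosome ones were in replicate 3, while the 16 of PBS were spread as 7, 5 and 4. No such split by group was made over all lines, so these counts have no background. The PBS libraries had 7937843 to 10548089 steps and LPS exosome replicate 1 had 14493632 with 1 such line. The part of depth in these counts was not tested.

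The share of the signal held by the members was 0.0218% ± 0.00432 with LPS exosomes, 0.0189% ± 0.0101 with normal exosomes and 0.0258% ± 0.00783 with PBS (SD, n = 3 each). The values were 0.0170%, 0.0233% and 0.0252% with LPS exosomes, 0.0122%, 0.0140% and 0.0306% with normal exosomes and 0.0346%, 0.0199% and 0.0228% with PBS. For all members together the 3 groups overlapped. For the long members alone the share was 0.00394% ± 0.00170 with LPS exosomes, 0.00164% ± 0.000615 with normal exosomes and 0.00319% ± 0.00191 with PBS (SD, n = 3 each). The long members held 0.00234%, 0.00376% and 0.00572% with LPS exosomes, 0.00214%, 0.00182% and 0.000950% with normal exosomes and 0.00535%, 0.00173% and 0.00248% with PBS. As shares, the LPS exosome values lay above the normal exosome ones, and the PBS values overlapped both. As summed normalized values, the LPS and normal exosome libraries overlapped, with LPS exosomes replicate 1 at 123 and normal exosomes replicate 1 at 136. The separation thus depends on division by the library total, and no test was made.

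**Figure D3:**
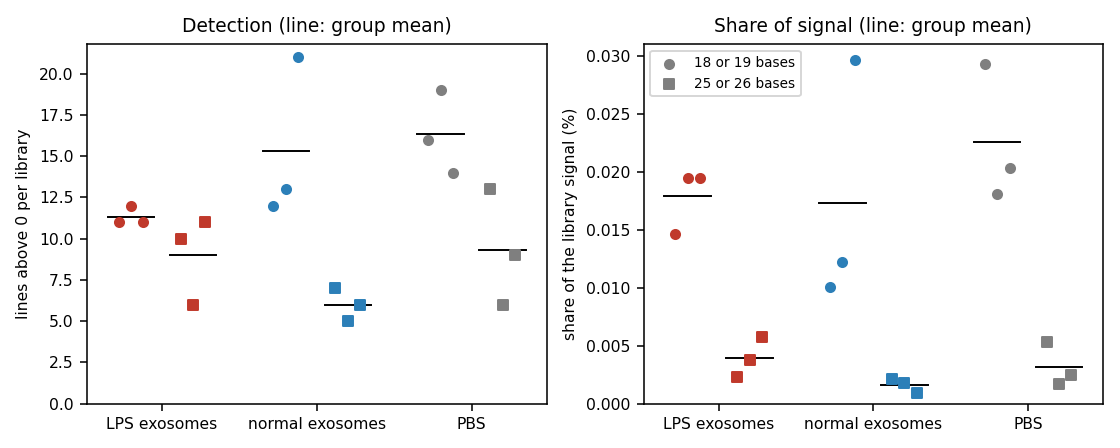
Each point is a library, circles for the 37 short and squares for the 20 long members, with a line at the group mean; left, the number of lines above 0 and right, the percent of the library's signal. Normal exosomes replicate 3 stands above its group for short members, with 21 lines. In share of signal the groups overlap for short members, and for long members the LPS exosome libraries lie above the normal exosome ones and overlap the PBS ones. The summed normalized values of the long members, not drawn, overlap between all groups.

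The comparisons between groups ask which candidates differ in hemocytes after exosomes tied to LPS, and after normal exosomes. The limma test on log2(value + 1) took in each line that reached 10 in 3 or more libraries, which left 162 lines of the table and 13 members, 11 short and 2 long. The other 44 members were not tested, and their highest value in any library was 23.8. A line was called at a Benjamini-Hochberg adjusted p under 0.05 over the 162 lines. The p-values cover only library-to-library spread, possibly of technical origin.

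Against PBS, 1 of the 13 tested members was called with LPS exosomes, where 4.32% of all 162 lines were called, 3.09% higher and 1.23% lower. That member was PC-3p-1990_749, at 313, 234 and 146 in the LPS exosome libraries, and at 0 in all normal exosome and all PBS libraries (limma adjusted p = 6.86e-05 against each). The LPS exosome libraries stood apart from the other 6 without overlap. No fold is given, since both other groups are listed at 0, where 4 or more steps can be hidden. The values of those groups show no spread and tell nothing of how libraries vary for this line. The line entered the test through its LPS exosome values alone and had 3 libraries to pass a filter that needs 3, so leaving out any 1 of them removed it from the test. With the tested lines held fixed it was called without each LPS exosome library in turn. That fixed list was chosen with the library left out, so these calls add no support.

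The 2 abundant lines of the same family had lower values with LPS exosomes but did not pass the test. PC-3p-552_3225 stood at 23.3, 86.9 and 59.5 with LPS exosomes, at 135, 177 and 441 with normal exosomes and at 169, 309 and 204 with PBS. Its LPS exosome libraries lay below all 6 others. The log2 fold change was -2.13 ± 0.58 (SE) for LPS exosomes vs PBS (limma adjusted p = 0.0705) and -2.13 ± 0.58 for LPS exosomes vs normal exosomes (limma adjusted p = 0.0826). Against PBS it passed without normal exosomes replicate 3 (limma adjusted p = 0.0449) and with no filter on low values (limma adjusted p = 0.0106), and against normal exosomes with no filter (limma adjusted p = 0.00646). PC-3p-1430_1100 stood at 88.1, 101 and 49.9 with LPS exosomes, at 84.0, 78.8 and 178 with normal exosomes and at 222.8, 193 and 121 with PBS. Its LPS exosome libraries lay below the PBS ones and overlapped the normal exosome ones, with a log2 fold change of -1.17 ± 0.44 (SE) against PBS (limma adjusted p = 0.165).

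The summed level of the 6 lines of the family overlapped between groups. In its makeup the LPS exosome libraries stood apart from the other 6, as they must where the sum holds PC-3p-1990_749, listed there alone. The sum was 425, 433 and 266 with LPS exosomes, 236, 269.7 and 659 with normal exosomes and 405, 513 and 337 with PBS. PC-3p-552_3225 made up 5.49%, 20.1% and 22.4% of that sum with LPS exosomes, 57.2%, 65.8% and 67.0% with normal exosomes and 41.7%, 60.2% and 60.6% with PBS. PC-3p-1990_749 made up 73.8%, 54.1% and 55.0% with LPS exosomes. It stood at 3.55, 2.32 and 2.93 times PC-3p-1430_1100, which differs by 1 base, in those 3 libraries. These shares add up to a whole within a library, so a rise of 1 line lowers the share of the others, and no test was made of them. Between PC-3p-552_3225 and PC-3p-1430_1100 alone, LPS exosome and PBS libraries overlapped. The first stood above the second in LPS exosomes replicate 3 (59.5 against 49.9) and below it in PBS replicate 1 (169 against 222.8).

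Each of the other 3 lines of the family was low, and 2 were listed in 1 group only. PC-3p-21485_45 was at 0 with LPS exosomes, at 13.6, 8.34 and 23.8 with normal exosomes and at 0 with PBS. PC-3p-31246_25 was at 0 in both exosome groups and at 10.8, 6.62 and 9.46 in the PBS libraries. PC-3p-10409_117 was at 0, 10.5 and 10.2 with LPS exosomes, at 3.40, 5.10 and 16.4 with normal exosomes and at 2.70, 4.41 and 2.63 with PBS, so the groups overlapped. The first 2 were not tested. In steps, PC-3p-21485_45 stood at 24, 18 and 68 with normal exosomes and PC-3p-31246_25 at 20, 12 and 18 with PBS. If their lowest listed level is 10 steps, a 0 elsewhere cannot be told from a level below that. Of the candidates of 20 bases that carry 1 more 5′ base, PC-3p-29528_27 reached at most 10.8 and PC-3p-32653_23 at most 14.1, and both were above 0 in at least 1 library of each group.

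**Figure D4:**
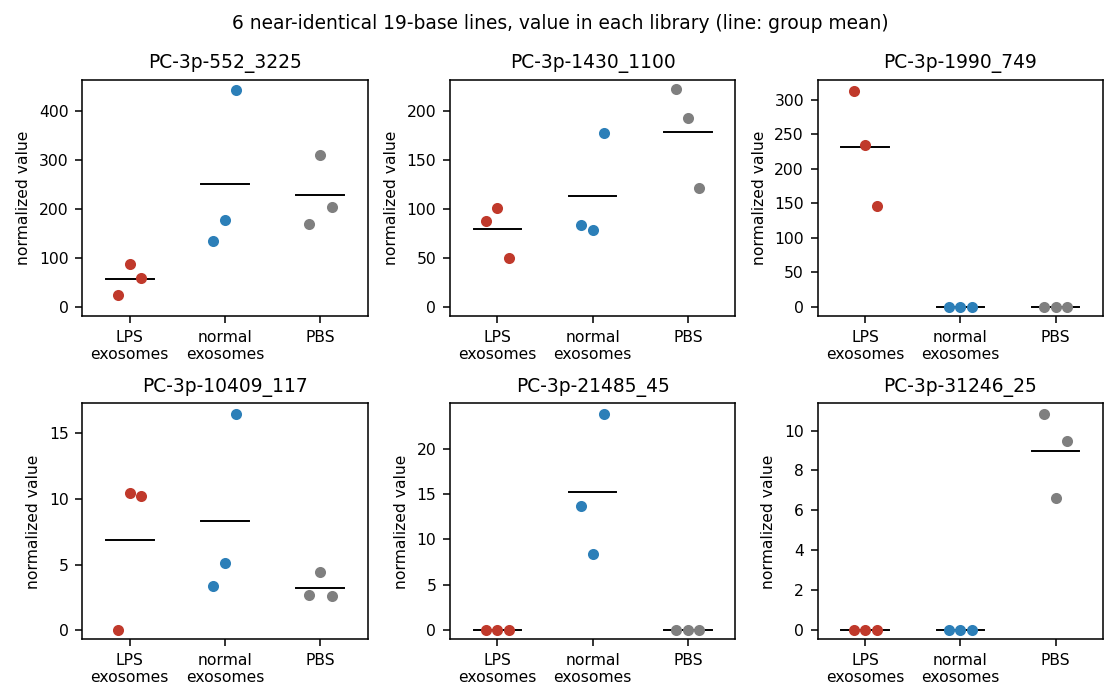
Normalized value (y axis, from 0) of each of the 6 lines of the family, of 19 bases, in each library, by group (x axis), with a line at the group mean. PC-3p-1990_749, PC-3p-21485_45 and PC-3p-31246_25 are each above 0 in the 3 libraries of 1 group and at 0 in the other 6, and PC-3p-552_3225 is lowest with LPS exosomes. A value at 0 can hide a low level.

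Across the table, 5 of 417 lines, 1.20%, were above 0 in all 3 libraries of 1 group and at 0 in the other 6, and 4 of these were members. Besides the 3 of the family, the member was PC-5p-24775_36, of 25 bases, at 0 with LPS exosomes, at 13.6, 3.24 and 1.75 with normal exosomes and at 0 with PBS. Its lowest values are near the worth of 4 steps. For the low lines of the family too, a listed 0 need not be an absence. The remaining line was a candidate of 22 bases listed in PBS libraries. None of the 213 named lines had this pattern.

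Other tested members overlapped between LPS exosomes and PBS, apart from PC-5p-2879_498. That line of 18 bases stood at 15.3, 32.0 and 34.0 with LPS exosomes, at 27.2, 45.4 and 88.8 with normal exosomes and at 60.6, 70.6 and 106 with PBS. Its log2 fold change was -1.55 ± 0.51 (SE) for LPS exosomes vs PBS (limma adjusted p = 0.141). PC-3p-3363_424 stood at 36.4, 49.3 and 91.8 with LPS exosomes, at 84.0, 73.2 and 85.3 with normal exosomes and at 151, 78.3 and 106 with PBS, with a log2 fold change of -0.96 ± 0.40 (SE) for LPS exosomes vs PBS (limma adjusted p = 0.193).

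In LPS exosomes vs PBS, groups did not overlap for 4 of 13 tested members, 1 higher and 3 lower, against 29.0% of all 162 lines. An unadjusted p under 0.05 was found for 5 of the 13, against 24.1% of the lines. The median log2 fold change of the tested members was -0.44, and that of all tested lines -0.06. With libraries scaled to equal totals the median of all lines was 0.11.

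In normal exosomes vs PBS, 0 of 13 tested members were called (limma; 0 at an unadjusted p under 0.05; lowest adjusted p 0.446), where 4.32% of all lines were called, 1.85% higher and 2.47% lower, and 16.7% had an unadjusted p under 0.05. For none of the 13 did the groups separate, against 25.3% of all lines. Of the 13, PC-3p-1990_749 is listed at 0 in each library of this comparison, so it could neither be called nor separate. The lowest p belonged to PC-3p-1430_1100, with a log2 fold change of -0.71 ± 0.44 (SE), followed by PC-5p-2879_498 with -0.67 ± 0.51 and PC-5p-3312_433 with -0.62 ± 0.54 (limma adjusted p = 0.446, 0.530 and 0.611). The 13 fold changes ran from -0.71 to 1.39 on the log2 scale. Their 95% intervals were wide, so a p that misses the threshold does not show that levels were alike.

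In LPS exosomes vs normal exosomes, 1 of 13 tested members was called, again PC-3p-1990_749, where 4.32% of all lines were called, 3.70% higher and 0.617% lower. An unadjusted p under 0.05 was found for 2 of the 13, against 16.0% of the lines. The groups did not overlap for 2 of 13, PC-3p-1990_749 and PC-3p-552_3225, against 25.3% of all lines. The next by p was PC-3p-6282_207, a line of 26 bases at 18.9, 37.0 and 62.3 with LPS exosomes, at 17.0, 22.2 and 8.39 with normal exosomes and at 30.3, 7.72 and 10.5 with PBS. Its groups overlapped, and its log2 fold change was 1.20 ± 0.68 (SE; limma adjusted p = 0.415). The comparisons with LPS exosomes share those libraries and the comparisons against PBS share the PBS libraries, so their results are not independent. An F-test over the 3 groups called PC-3p-1990_749 alone among the members (limma adjusted p = 7.36e-05), where 6.17% of all lines were called. The F-test used the same values as the comparisons, and this line passed the filter through its LPS exosome values alone. Its result is therefore no further support. In 1 or more of the comparisons 7.41% of all lines were called, with the same line alone among the members.

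**Figure D5:**
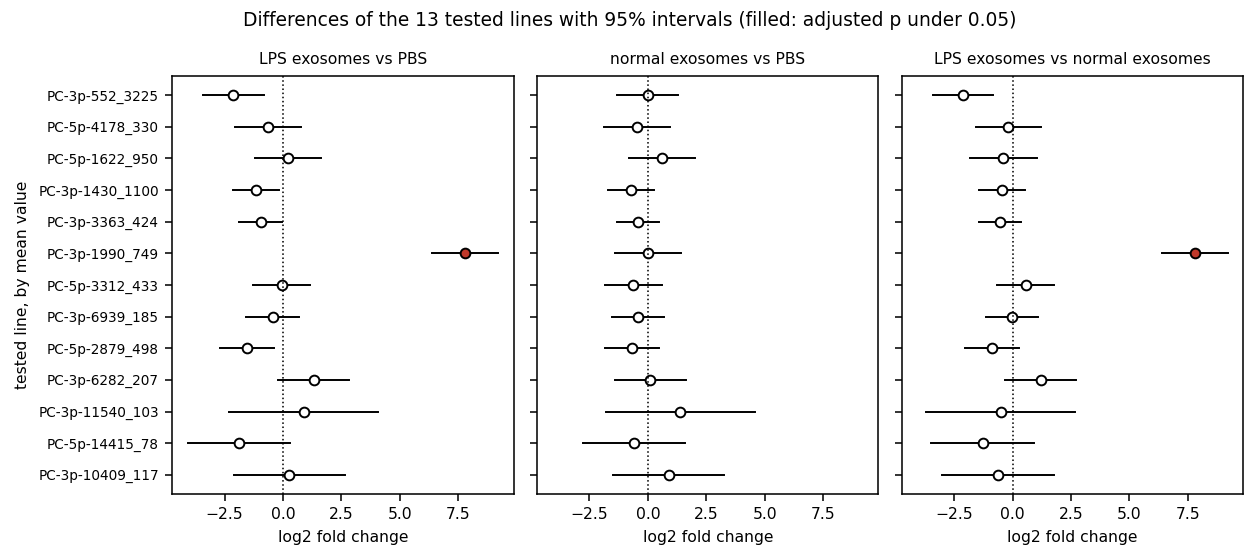
Log2 fold change on the log2(value + 1) scale (x axis) with its 95% interval for the 13 tested members (rows, highest mean at the top) in each of the 3 comparisons, filled where the adjusted p was under 0.05. PC-3p-1990_749 lies at 7.79 in both comparisons that involve LPS exosomes, a fitted value against groups listed at 0 that is no measure of fold, and most other intervals cross 0.

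The groups of the other members seen in all 9 libraries overlapped. PC-5p-4178_330, of 18 bases, stood at 75.7, 117.1 and 190.4 with LPS exosomes, at 61.3, 142 and 281 with normal exosomes and at 363, 132 and 137 with PBS. PC-5p-1622_950, the line of 19 bases with the inverted repeat described above, stood at 146, 179 and 95.2 with LPS exosomes, at 151, 102 and 369.8 with normal exosomes and at 53.0, 116 and 256 with PBS. PBS replicate 1 was highest for the first line and normal exosomes replicate 3 for the second. PC-3p-6939_185 was likewise at 164 in PBS replicate 1, while its other 8 values lay between 43.6 and 65.7. PC-5p-3312_433, the most abundant long member, stood at 45.9, 96.1 and 90.7 with LPS exosomes, at 84.0, 69.5 and 21.0 with normal exosomes and at 99.5, 67.3 and 68.3 with PBS.

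Of the tested members not in all libraries, PC-3p-11540_103, the member richest in G and C, stood at 0, 18.5 and 32.9 with LPS exosomes, at 13.6, 7.42 and 14.7 with normal exosomes and at 12.98, 6.62 and 0 with PBS. PC-5p-14415_78, of 18 bases, stood at 5.10, 7.40 and 0 with LPS exosomes, at 5.67, 5.56 and 16.1 with normal exosomes and at 15.1, 24.3 and 5.25 with PBS. The groups of both lines overlapped.

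The 3 members that extend another line were far below it or as low as it. PC-3p-23124_40 had a mean of 2.38 over the 9 libraries, where the miR-2b line it extends had 70616. It stood at 1.82, 3.70 and 3.40 with LPS exosomes, at 2.84, 0 and 0 with normal exosomes and at 5.95, 0 and 3.68 with PBS. PC-5p-20874_47 stood at 9.47, 17.3 and 10.2 with LPS exosomes, at 0 in the normal exosome libraries and at 5.41, 6.62 and 0 with PBS, and its 3 LPS exosome values lay above the other 6. The miR-1985 line it extends stood at 2172, 2939 and 2589.8 with LPS exosomes, at 2388, 2609 and 1258 with normal exosomes and at 2337, 1171 and 1611 with PBS, so the longer form did not follow it in every library. PC-5p-20874_47 did not pass the filter and was not tested. How many of all lines have LPS exosome values above the other 6 was not counted. PC-3p-48158_11 was at 11.9 in PBS replicate 1 and at 0 in the other 8 libraries, and the 20-base candidate it extends was at 3.64, 6.16 and 19.3 with LPS exosomes, at 0 with normal exosomes and at 0, 0 and 10.5 with PBS.

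The mean values of the 26-base lines, which all begin with T, ran from 1.26 to 23.8, their median was 2.38, and 2 of the 11 were seen once. The next after PC-3p-6282_207 were PC-5p-20874_47 and PC-5p-23098_40, the last at 10.9, 0 and 0 with LPS exosomes, at 5.67, 0 and 0 with normal exosomes and at 18.4, 5.51 and 6.30 with PBS. Among the lines of 25 bases, PC-5p-19341_52 stood at 13.8, 8.63 and 11.3 with LPS exosomes, at 6.81, 0 and 3.50 with normal exosomes and at 5.41, 0 and 0 with PBS, and PC-3p-17462_60 at 9.47, 0 and 0 with LPS exosomes, at 0, 4.63 and 3.50 with normal exosomes and at 20.5, 7.72 and 11.6 with PBS. The LPS exosome values of PC-5p-19341_52 lay above the other 6. In steps, those stood at 12, 0 and 10 with normal exosomes and at 10, 0 and 0 with PBS, where the lowest listed level may be 10. This line was described after its values were seen, and the pattern was not counted over all lines, so it has no background. Neither line passed the filter.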

How the data were processed

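Small RNA of hemocytes was measured in 9 libraries made with TruSeq small RNA kits and sequenced on an Illumina HiSeq, and the authors removed adapter dimers, junk, low-complexity reads, rRNA, tRNA, snRNA, snoRNA and repeats with ACGT101-miR, per the labels' protocols. The deposited values are a signal called normalized counts per the file headers; their scaling, the aligner, the genome and the miRBase version were not given in the sources used here, hence no positions appear. Groups were taken from sample titles.

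Members were found by name and length. Lines with 10 or more in at least 3 libraries were fitted with limma 3.58.1 (trend and robust, statmod 1.5.0, R 4.3.3) after a log2(value + 1) transform. A single model held the 3 group means and all 9 libraries, with Benjamini-Hochberg adjustment over 162 lines. The pseudocount understates changes of low lines. The fit was tested on simulated data. Planned count tests were not run, because the values are normalized and not raw counts. Members named were those called, the 3 of lowest p per comparison, the 10 of highest mean, those in all 9 libraries and near-identical ones; PC-3p-11540_103, PC-5p-14415_78, PC-5p-19341_52, PC-3p-17462_60, PC-5p-23098_40, PC-3p-65923_6 and PC-5p-24775_36 were also described after their values were seen. Members and lists were chosen with earlier results of these data known. Alternatives were 2 scalings, 2 filters, a pseudocount of 10, other fits, other length bounds and leaving out each library.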

Additional observations from a re-analysis of the deposited data

How the results depend on the processing

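PC-3p-1990_749 was called in 25 of the 25 alternatives that tested it, in both comparisons with LPS exosomes (limma adjusted p from 8.17e-07 to 0.00109). It passed the filter through its LPS exosome values alone, so these calls are not independent support. It could not be tested without any 1 LPS exosome library unless the tested lines were held fixed. That setting was added after seeing the data, as was setting values at 0 to 4 steps. The number of members called in LPS exosomes vs PBS, 1, became 2 with no filter on low values and with the replicate block, and ran from 0 to 2 when each library was left out (1 to 2 with the tested lines held fixed). In LPS exosomes vs normal exosomes it became 2 with no filter and with the replicate block, and ran from 0 to 1 when each library was left out (1 with lines held fixed). The second line was PC-3p-552_3225 (limma adjusted p = 0.0456 against PBS and 0.0459 against normal exosomes with the block), also called against PBS without normal exosomes replicate 3; its limma adjusted p ran from 0.0106 to 0.211 over 28 alternatives against PBS, and from 0.00646 to 0.246 against normal exosomes. In normal exosomes vs PBS 0 members were called under each alternative run. No fold change of the members followed, those called or of lowest p, changed direction. Same-numbered libraries of different groups deviated together in 4 of 9 pairs (r over 0.1; range -0.30 to 0.29), and 4 of 9 libraries correlated best with their own number, so the numbers were not taken to pair them.

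Calls over the whole table, 7 in each comparison, ran from 0 to 10, 2 to 6 and 1 to 10 as libraries were left out in LPS exosomes vs PBS, normal exosomes vs PBS and LPS exosomes vs normal exosomes. Equal totals shifted the whole-table median (log2) from -0.06 to 0.11, from -0.00 to -0.22 and from -0.15 to 0.16, and the calls to 5 higher and 1 lower, 3 and 9, and 7 and 0, where the deposited values gave 5 and 2, 3 and 4, and 6 and 1. With length bounds of 18 and 26 bases the share of signal was 0.00801%, 0.00691% and 0.0118%, and the lines above 0 per library averaged 11, 9.67 and 12.7, with LPS exosomes, normal exosomes and PBS. With the bounds of the report and 1 library left out, the shares ran from 0.0201% to 0.0243%, 0.0131% to 0.0223% and 0.0213% to 0.0287%, and the lines above 0 from 19.5 to 21.5, 18.5 to 23 and 24 to 27, in the same order of groups. The 27 members seen once stood at 10 to 22 steps, where the lowest listed value of any line was mostly 5. For 26 of them the steps were 2 times the number ending their name, and none stood under 10. Their own lowest listed level may thus be 10 steps, and a 0 elsewhere cannot be told from a level below that. Planned count tests were not run.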

Other observations

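The number that ends a candidate's name was compared with the steps summed over the 9 libraries. The summed steps were exactly 2 times that number for 38 of the 57 members, equal to it for 3 and below it for none. The ratio reached 9.47, for PC-5p-4178_330. Among candidates of 20 to 24 bases it was 2 for 80 of 147 and 1 for 11. Of the 27 members seen in 1 library, 26 stood at 2 times their name number, and these numbers were 5 to 11. The sources used here do not state what the name number counts, so whether a step is 1 read is not known.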
